A study of Mus musculus with 60 samples.

Results

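The p53 target genes examined here are Cdkn1a, Mdm2, Ccng1, Bax, Bbc3, Phlda3, Sesn2, Trp53inp1, Zmat3 and Pmaip1, 10 of the 27665 transcripts counted in the series, with 1 representative transcript per gene. They were chosen by name as established targets of p53, with earlier results of these data known. Each transcript identifier in the count table was matched to its symbol. Nascent transcription was measured by EU-seq, in which cells take up 0.5 mM 5-ethynyl uridine for 20 min and the labelled RNA is isolated and sequenced, so that the counts follow ongoing transcription rather than stored mRNA. The 60 libraries fall into 20 groups of mouse E14 embryonic stem cells (mESCs) and neural progenitor cells (NPCs), with 2 libraries in each group except for the additional RAD21-AID mESC experiment, which had 12 per group. The question put to the 10 genes was whether a DNA-damage type response accompanies acute loss of cohesin or CTCF, or inhibition of CBP/p300.

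All lines carried degron tags in both treated and control cells. Control cells, which per the methods received DMSO, the solvent, are called untreated here. GFP-AID-Rad21 mESCs (RAD21-AID) were collected untreated or after 500 µM IAA, the auxin that triggers degradation of the tagged cohesin subunit, for 4 h. NPCs derived from the RAD21-AID mESCs were collected untreated, after 500 µM IAA for 1 h, 2 h or 4 h, or after 10 µM A-485, an inhibitor of the CBP/p300 acetyltransferases, for 1 h. GFP-AID-Ctcf mESCs (CTCF-AID) were collected untreated or after 500 µM IAA for 6 h, as 2 unstranded and 2 stranded libraries per group. The GFP-FKBP12F36V-Ctcf line with the substitutions Y226A/F228A (CTCF-YF-AA), a CTCF mutant defective in holding cohesin, was treated with 200 nM dTAG13 for 2 h or 4 h. The line bTAG-delN-CTCF/dTAG-CTCF-delC (ΔN/ΔC) holds 2 CTCF forms, one without its N terminus that AGB1 degrades and one without its C terminus that dTAG13 degrades, and it received 100 nM AGB1, 100 nM dTAG13 or both for 2 h. For ΔN/ΔC the dTAG13 dose is that of the sample labels, and the names of the count columns give 200 nM. A general treatment text attached to the earlier mESC libraries also describes triptolide, a transcription inhibitor, which no title or treatment label of these libraries names, so groups follow the titles. The edited lines were picked clones, so a difference between lines also holds the difference between clones. Per the methods, CTCF-YF-AA and ΔN/ΔC cells seemed to grow more slowly than CTCF-AID cells.

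The 9 mESC markers, among them Pou5f1, Nanog and Esrrb, summed to between 3658 and 5057 CPM (counts scaled by library size) in untreated mESC libraries and to between 51.8 and 58.3 in NPC libraries. The 9 NPC markers, among them Nes and Pax6, summed to between 1092 and 1155 CPM in NPCs and to between 66.9 and 124 in mESCs, and 5 neuron markers summed to 286 to 288 CPM in NPCs and to 19.4 to 72.3 in mESCs. Sums of 4 astrocyte markers overlapped, at 31.7 to 64.5 CPM in mESCs and 61.0 to 64.4 in NPCs, and 7 endoderm and mesoderm markers summed to 9.0 to 38.4 and 12.3 to 14.8. The part of other cell types in the values was not tested. Libraries held 4027449 to 21898781 counts, with a median of 13579700.

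The transcription factor p53 is kept scarce by the ubiquitin ligase MDM2 and accumulates after DNA damage and other stress. It then binds a paired sequence motif near its target genes and recruits coactivators, CBP and p300 among them. Cdkn1a encodes p21, which blocks cyclin-dependent kinases and arrests the cell cycle, and Ccng1 encodes cyclin G1, a further cell cycle regulator. Mdm2 closes a negative feedback loop on p53. Bax, Bbc3 (PUMA) and Pmaip1 (NOXA) encode proteins of the BCL2 family that promote apoptosis, and Phlda3 encodes a repressor of AKT signalling. Sesn2 encodes a sestrin that restrains mTORC1, Trp53inp1 a stress-induced protein of autophagy and cell death, and Zmat3 an RNA-binding protein. EU-seq reports transcription of these genes and does not measure p53 protein.

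Promoter sequence from RefSeq (build GRCm38.p6, 300 bases from 250 before to 50 after the annotated start) was read for 7 of the 10 genes. Of these, 4 are printed because they represent feedback, arrest and apoptosis and differ in their p53 motif content. Like all 10 genes they were lower after A-485, by differing amounts, and they were picked with that result known. Capitals mark each 10-letter unit of the p53 consensus, on either strand, that belongs to a match.

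Cdkn1a, chr17:29090729-29091028, plus strand: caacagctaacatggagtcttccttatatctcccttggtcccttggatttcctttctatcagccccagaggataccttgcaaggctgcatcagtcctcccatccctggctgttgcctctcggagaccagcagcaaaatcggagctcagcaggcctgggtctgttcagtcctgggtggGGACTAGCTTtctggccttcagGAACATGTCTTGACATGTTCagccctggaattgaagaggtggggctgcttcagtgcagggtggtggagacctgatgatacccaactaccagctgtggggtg

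Mdm2, chr10:117710709-117711008, minus strand: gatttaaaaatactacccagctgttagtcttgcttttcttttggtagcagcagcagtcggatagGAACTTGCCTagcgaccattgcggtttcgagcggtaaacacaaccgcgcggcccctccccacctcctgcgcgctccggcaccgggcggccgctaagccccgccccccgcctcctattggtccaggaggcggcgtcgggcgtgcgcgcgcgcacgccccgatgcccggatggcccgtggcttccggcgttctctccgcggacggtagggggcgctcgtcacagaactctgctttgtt

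Bax, chr7:45466849-45467148, minus strand: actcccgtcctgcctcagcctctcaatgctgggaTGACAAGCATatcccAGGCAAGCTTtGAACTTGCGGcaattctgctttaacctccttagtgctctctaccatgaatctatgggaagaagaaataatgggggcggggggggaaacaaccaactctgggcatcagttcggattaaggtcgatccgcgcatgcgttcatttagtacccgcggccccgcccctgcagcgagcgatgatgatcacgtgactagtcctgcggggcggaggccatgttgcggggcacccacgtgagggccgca

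Bbc3, chr7:16309333-16309632, plus strand: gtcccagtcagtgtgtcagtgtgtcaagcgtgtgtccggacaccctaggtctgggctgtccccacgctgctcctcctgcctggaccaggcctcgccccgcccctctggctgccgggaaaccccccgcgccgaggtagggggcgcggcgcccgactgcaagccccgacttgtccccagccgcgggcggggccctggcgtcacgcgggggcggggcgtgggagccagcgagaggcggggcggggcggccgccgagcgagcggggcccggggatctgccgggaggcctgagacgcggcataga

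The Cdkn1a window lies at the start of its counted transcript, and windows at other starts of the gene were not read. It held 2 matches to a paired p53 site, defined as 2 units at most 13 bases apart with at most 2 mismatches. The first began 73 bases before that start with 0 mismatches and a spacer of 12. The second began 51 bases before that start with 1 mismatch and no spacer. The Bax window also held 2 paired matches, each with 2 mismatches. Mdm2 and Ccng1 held 1 unpaired unit, and none was found in the windows of Bbc3, Phlda3 and Sesn2. Of 32851 promoter windows of the same length, 2.12% held a paired match and 8.36% held at least 1 perfect unit. The letters CCAAT, on either strand, occurred in the windows of Mdm2, Ccng1 and Sesn2 and in 37.4% of all windows, and TATAAA occurred in none of the 7 and in 13.6% of all windows. These windows say nothing about sites elsewhere in the genes, and no binding data are used here.

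Across 11 degron treatments (110 tests of a member), 7 tests passed both thresholds, an adjusted p below 0.05 and 1.3-fold or more, 6 of them lower and 1 higher than in untreated cells. That is 6.36% of the members' tests, near the 5.93% called over all genes in the same treatments. In 99 of the 110 tests the 95% confidence interval lay below a 1.3-fold rise. Cdkn1a accounted for 4 of the lower calls and was below its controls in 7 of 8 degron treatments of mESCs, whereas all 10 genes were lower after A-485. All 10 genes had enough counts to be tested in every comparison. The study describes its EU-seq libraries as biological replicates without naming separate cultures, so the p-values measure the spread between libraries, which may be partly technical. Changes are log2 fold changes centred on the median of expressed genes, given with their standard error, and adjusted p-values come from edgeR's quasi-likelihood test of the uncentred change over all genes tested.

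**Figure D1:**
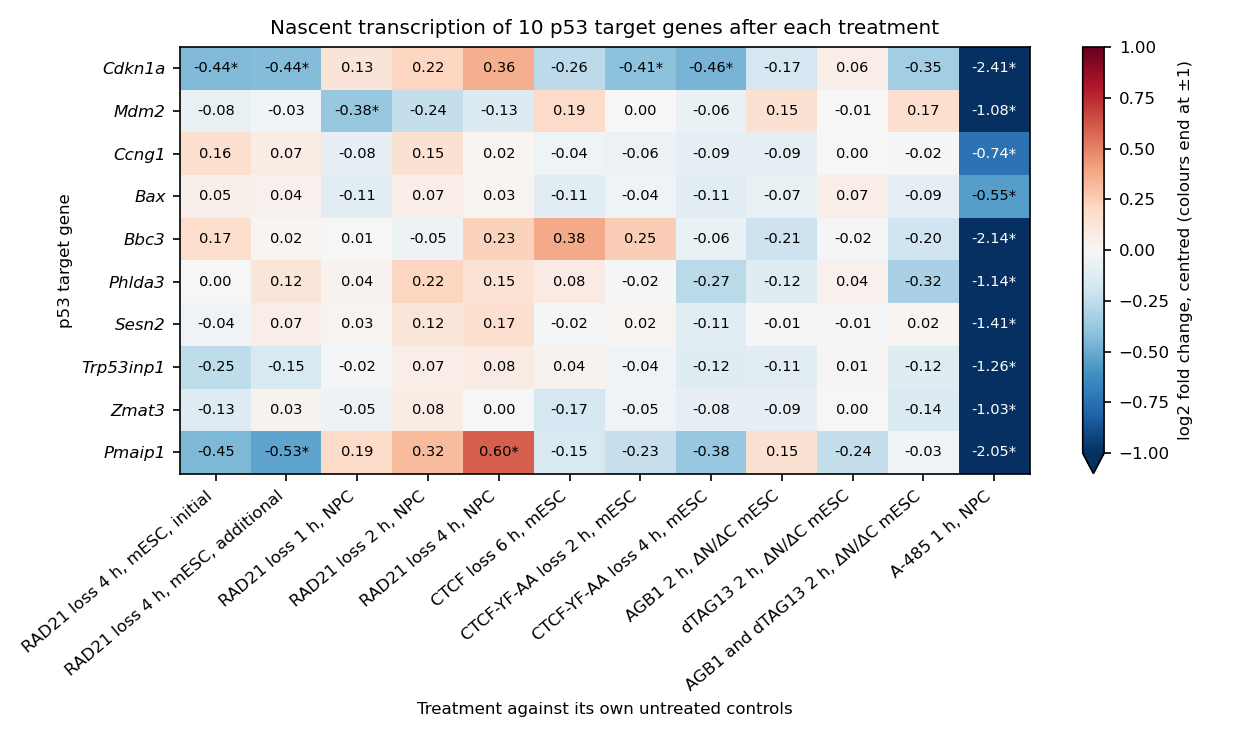
Centred log2 fold change of each of the 10 p53 target genes (rows) in each of the 12 treatments against its own untreated controls (columns), with colours ending at ±1 and asterisks for changes that passed the test. The 11 degron columns hold changes of at most 0.60 in size, blue for Cdkn1a in most mESC columns, and the A-485 column at the right is blue in every row.

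In mESCs, 4 h of RAD21 loss lowered Cdkn1a and Pmaip1 and raised none of the 10 genes. In the additional experiment, Cdkn1a in the 12 control libraries ran from 263 to 294 CPM with a median of 282, and in the 12 IAA libraries from 197 to 219 with a median of 203. Every IAA library was below every control library. The log2 fold change was -0.44 ± 0.02 (adjusted p = 3.3e-26). Pmaip1 was scarce, at 6.17 to 9.88 CPM in controls (median 7.24) and 4.09 to 6.41 after IAA (median 5.13), with a log2 fold change of -0.53 ± 0.08 (adjusted p = 2.3e-08), and its ranges met at the edge. Trp53inp1 was below its controls without overlap (305 to 342 against 267.3 to 298 CPM), but its change of -0.15 ± 0.02 (adjusted p = 7.5e-10) was under 1.3-fold. CPM in bulk libraries cannot tell fewer transcribing cells from less transcription in each cell.

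The other 7 genes changed by no more than 0.12 on the log2 scale, and the highest upper bound of any member was 0.20, for Phlda3. Phlda3 had a log2 fold change of 0.12 ± 0.04, Ccng1 of 0.07 ± 0.02 and Sesn2 of 0.07 ± 0.02, all with adjusted p under 0.05 and under 1.3-fold. Mdm2, at 323 to 346 CPM in controls and 314 to 334 after IAA, had -0.03 ± 0.02, and Bbc3, at 32.8 to 39.3 and 32.5 to 37.8 CPM, had 0.02 ± 0.03. The 2 members called compare with 12.3% of all genes tested, and the median over the 10 genes was 0.03, as over all genes (0.03). In the first batch of this experiment there was 1 library per group, and within the second batch alone the changes were -0.43 for Cdkn1a and -0.51 for Pmaip1.

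The initial RAD21-AID mESC experiment gave 1 call, Cdkn1a, against 4.74% of genes tested. Its 2 control libraries had 275 and 240 CPM and its 2 IAA libraries 189 and 188, a log2 fold change of -0.44 ± 0.08 (adjusted p = 4.2e-07). Both treated libraries were below both controls, although without control replicate 1 the change was -0.34 and under 1.3-fold. Pmaip1 had 7.61 and 5.82 CPM in controls and 6.31 and 3.47 after IAA (-0.45 ± 0.23, adjusted p = 0.23), with overlapping groups. Trp53inp1 was at -0.25 ± 0.08 (adjusted p = 0.015), under the fold threshold. Of the other genes, Ccng1 and Bbc3 had higher IAA than control libraries, with log2 fold changes of 0.16 and 0.17. Mdm2 (-0.08 ± 0.08) and Zmat3 (-0.13 ± 0.08) had lower IAA than control libraries, and none of these 4 changes passed the test.

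**Figure D2:**
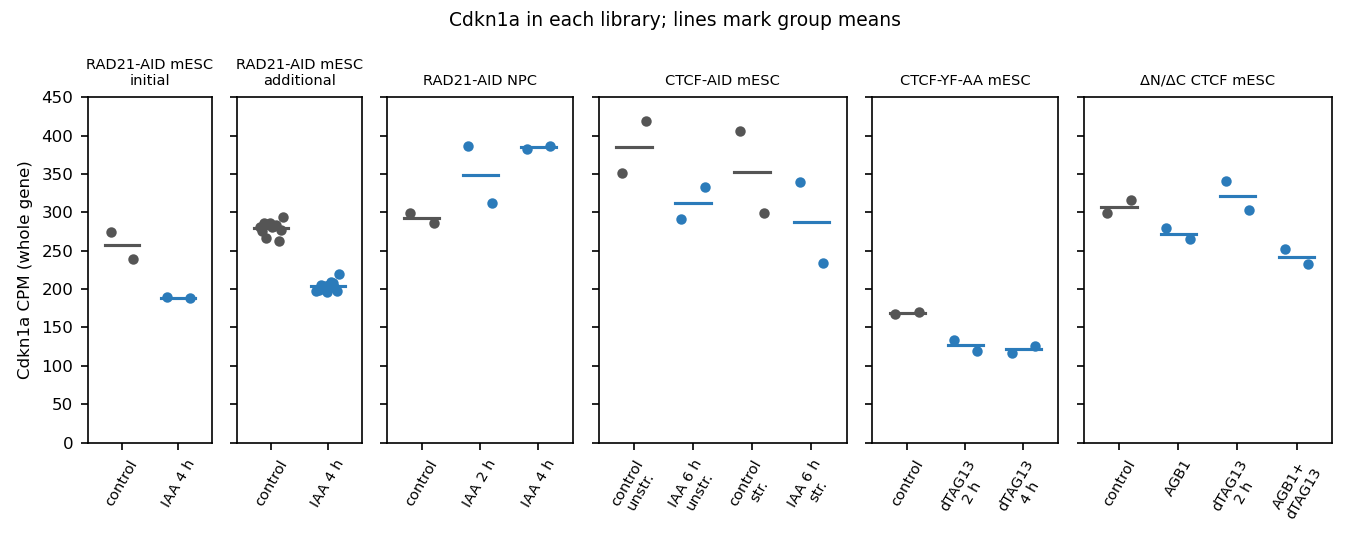
Cdkn1a in CPM over the whole gene (y axis from 0) in each library of whole-gene counts, grouped by line and treatment, with untreated libraries in grey, treated libraries in blue and group means as lines. Treated points lie below controls in RAD21-AID mESCs and above them in NPCs, and the CTCF-YF-AA line starts from 167 and 170 CPM untreated. CPM was scaled within each line and experiment.

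In NPCs, loss of RAD21 lowered Mdm2 at 1 h and raised Pmaip1 at 4 h, and Cdkn1a lay above its controls at each time without reaching 1.3-fold. Comparisons at 2 h and 4 h share the same 2 control libraries, and the 1 h libraries are counted over the first 90 kb of each gene against the same 2 controls counted that way. None of the 10 genes is longer than 90 kb, so their counts do not depend on this limit while CPM does.

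Cdkn1a had 367 and 350 CPM in the 2 controls of the 90 kb counts and 402 and 394 after 1 h of IAA, a log2 fold change of 0.13 ± 0.04 (adjusted p = 0.0085). Over whole genes it had 299 and 286 CPM in controls, 386 and 312 after 2 h (0.22 ± 0.09, adjusted p = 0.086) and 383 and 387 after 4 h (0.36 ± 0.04, adjusted p = 2.5e-10). Treated libraries lay above controls at each time, and the change at 4 h was 1.29-fold, just under the threshold of 1.3. It passed that threshold without IAA replicate 1 (0.38), without control replicate 1 (0.40) or without centring (0.40).

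Pmaip1 was called at 4 h, with 24.7 and 25.8 CPM in controls and 40.5 and 37.8 after IAA, a log2 fold change of 0.60 ± 0.07 (adjusted p = 1.7e-08). At 1 h the log2 fold change was 0.19 ± 0.08 (adjusted p = 0.065) and at 2 h 0.32 ± 0.10 (adjusted p = 0.027), the latter under 1.3-fold. Without IAA replicate 2, the 2 h change was 0.41 and passed. No ordering of the 3 times was tested, since they share controls.

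Mdm2 was called at 1 h, with 677 and 689 CPM in controls and 527 and 537 after IAA. Its log2 fold change of -0.38 ± 0.04 (adjusted p = 9.8e-07) was at the fold threshold itself, and it fell short of it without IAA replicate 1 (-0.36), without control replicate 2 (-0.37) or without centring (-0.35). At 2 h it was -0.24 ± 0.08 (adjusted p = 0.12) and at 4 h -0.13 ± 0.04 (adjusted p = 0.025), under 1.3-fold.

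The other genes stayed within 0.23 on the log2 scale at all 3 times. At 4 h, Bbc3 (0.23 ± 0.05, adjusted p = 9.0e-05), Sesn2 (0.17 ± 0.04, adjusted p = 5.3e-05), Phlda3 (0.15 ± 0.05, adjusted p = 0.0040) and Trp53inp1 (0.08 ± 0.04, adjusted p = 0.012) were above controls but under 1.3-fold. Ccng1, Bax and Zmat3 had overlapping groups at 4 h. The 10 genes gave 1 call at 1 h, where 5.09% of all genes tested were called, 0 at 2 h against 9.34%, and 1 at 4 h against 16.7%. At 2 h, 6 members had an unadjusted p under 0.05 and 2 an adjusted p under 0.05 in edgeR, Pmaip1 and Phlda3 (0.22 ± 0.07), both under 1.3-fold, and DESeq2 called 0. The median over the members at 4 h was 0.12, beside -0.02 over all genes tested.

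The NPC response to 4 h of RAD21 loss was compared with the mESC response of the additional experiment in 1 model. Cdkn1a (difference of log2 fold changes 0.82 ± 0.05, adjusted p = 1.1e-21) and Pmaip1 (1.14 ± 0.13, adjusted p = 2.3e-11) were called higher in NPCs. These 2 of 10 compare with 18.2% of all genes tested. Trp53inp1 (0.25 ± 0.05), Bbc3 (0.23 ± 0.07) and Sesn2 (0.11 ± 0.05) had adjusted p under 0.05 for the difference but were under 1.3-fold. For Ccng1, Bax, Phlda3 and Zmat3 the difference was between -0.04 and 0.04, with intervals between -0.14 and 0.20. Mdm2 had the lowest difference, at -0.09, and did not reach an adjusted p under 0.05. Cell type and experiment cannot be told apart in this comparison.

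**Figure D3:**
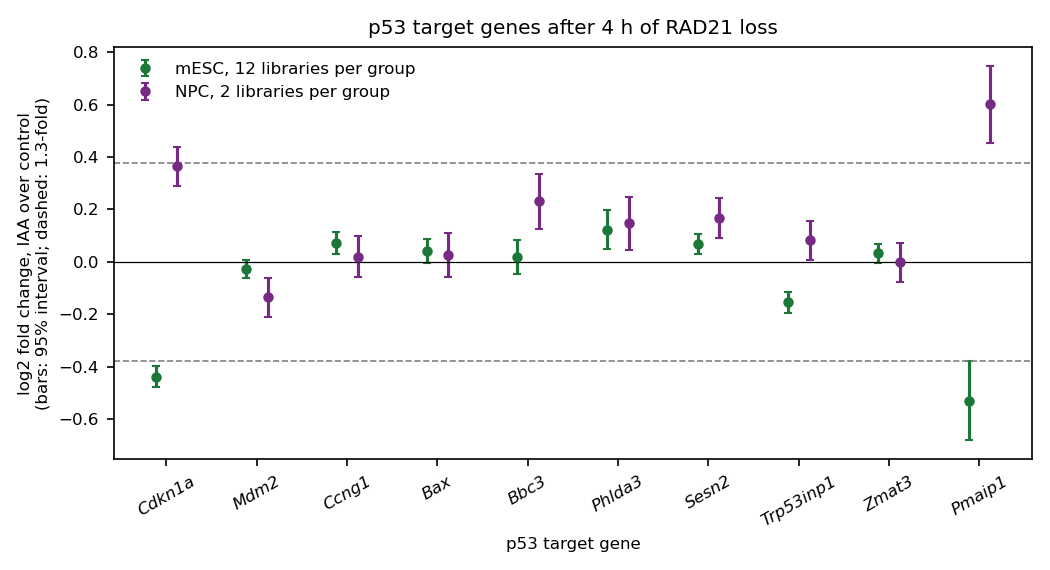
Centred log2 fold change of each p53 target gene after 4 h of IAA, in mESCs (green, 12 libraries per group) and NPCs (purple, 2 per group), with 95% confidence intervals and dashed lines at 1.3-fold. The intervals of Cdkn1a and Pmaip1 lie on opposite sides of 0 in the 2 cell types, and those of most other genes lie inside the dashed lines.

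Loss of CTCF for 6 h in mESCs gave 0 calls among the 10 genes in edgeR, where 3.36% of genes tested were called, and DESeq2 also gave 0. At an unadjusted p under 0.05 there were 2, Mdm2 and Zmat3, and no member had an adjusted p under 0.05. Cdkn1a had 352 and 419 CPM in unstranded controls, 407 and 300 in stranded controls, 292 and 333 in unstranded IAA libraries and 340 and 234 in stranded ones, a log2 fold change of -0.26 ± 0.16 (adjusted p = 0.42). The spread between replicates was wide, and libraries with the same number deviated together. With the replicate number as a block, Cdkn1a was at -0.27 (adjusted p = 0.00023), Zmat3 at -0.18 (adjusted p = 0.0048), Mdm2 at 0.19 (adjusted p = 0.011) and Bbc3 at 0.34 (adjusted p = 0.035), with 0 members past 1.3-fold.

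Bbc3 had 20.1, 20.4, 18.9 and 17.8 CPM in CTCF-AID controls and 25.4, 26.3, 28.6 and 17.4 after IAA. Its log2 fold change of 0.38 ± 0.16 (adjusted p = 0.33) was 0.52 without the second stranded IAA library, with an adjusted p of 0.049. Mdm2 was higher in all 4 IAA libraries (253 to 273 CPM) than in all 4 controls (232 to 242), at 0.19 ± 0.07, and Zmat3 was lower in all 4 (146 to 161 against 165 to 201), at -0.17 ± 0.07. The Pmaip1 interval, from -1.25 to 0.95, was too wide to place this gene.

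In CTCF-YF-AA mESCs, dTAG13 lowered Cdkn1a at both times and changed no other member past the thresholds. The 2 control libraries, shared by both times, had 167 and 170 CPM. After 2 h the libraries had 134 and 119 CPM, a log2 fold change of -0.41 ± 0.07 (adjusted p = 6.6e-07), and after 4 h 117 and 126 CPM, -0.46 ± 0.07 (adjusted p = 2.7e-07). Without the second 2 h library the 2 h change was -0.32 (adjusted p = 0.034), under 1.3-fold. This is 1 of 10 members at 2 h, where 2.7% of genes tested were called, and 1 of 10 at 4 h, where 3.33% were called.

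At 4 h all 10 genes were below 0, between -0.06 and -0.46 with a median of -0.11, beside 0.01 over all genes tested. Next to Cdkn1a came Pmaip1 at -0.38 ± 0.28 (adjusted p = 0.58), at 6.15 and 5.61 CPM, and then Phlda3 at -0.27 ± 0.09 (adjusted p = 0.069), at 56.0 and 57.6 CPM against 66.4 and 70.9 in controls. Comparing 4 h with 2 h directly called 0 members and 0.0563% of genes tested, with 3 members at an unadjusted p under 0.05, none at an adjusted one, and 0 called by DESeq2. The response to 6 h of CTCF loss in the unstranded CTCF-AID libraries was not distinguished from the 4 h CTCF-YF-AA response for any member. The calls were 0 of 10 in edgeR and in DESeq2 against 1.44% of genes tested, with 4 at an unadjusted p under 0.05. The treatment times and degrons differ. This fit did not use the replicate pairing of the CTCF-AID libraries, and with the replicate number as a block more of all genes were called.

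In ΔN/ΔC mESCs no member was called under any of the 3 treatments, which share 2 controls. Cdkn1a had 299 and 316 CPM in controls, 279 and 265 after AGB1 (-0.17 ± 0.05, adjusted p = 0.063), 340 and 303 after dTAG13 (0.06 ± 0.06, adjusted p = 0.999) and 252 and 233 after both (-0.35 ± 0.06, adjusted p = 3.2e-05). The last change was 1.27-fold and passed the fold threshold without combined replicate 1 (-0.40) or control replicate 1 (-0.39). After both degraders Phlda3 was at -0.32 ± 0.07 (adjusted p = 0.0019) and Mdm2 at 0.17 ± 0.05 (adjusted p = 0.042), under 1.3-fold. The background was 1.44% of genes called after AGB1, 0.0587% after dTAG13 and 3.5% after both. DESeq2 called 0 members in each, and edgeR had 4 members at an unadjusted p under 0.05 after AGB1, 0 after dTAG13 and 6 after both.

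Set against dTAG13 directly, AGB1 gave lower Cdkn1a (-0.24 ± 0.05, adjusted p = 0.021) and higher Mdm2 (0.16 ± 0.04, adjusted p = 0.049), both under 1.3-fold. The other 8 differences did not pass an adjusted p of 0.05, with 0 members called by edgeR and DESeq2 against 1.28% of genes tested and 5 at an unadjusted p under 0.05. The interval for Sesn2, for example, ran from -0.09 to 0.09, and that for Pmaip1 from -0.12 to 0.89.

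A-485 lowered all 10 genes in NPCs within 1 h. Cdkn1a dropped from 367 and 350 CPM to 74.5 and 74.3, a log2 fold change of -2.41 ± 0.06 (adjusted p = 3.4e-14) or 5.33-fold. Bbc3 dropped from 74.2 and 74.7 CPM to 20.0 and 17.4 (-2.14 ± 0.08), and Pmaip1 from 30.3 and 31.7 to 7.68 and 8.84 (-2.05 ± 0.12). For each of the 10 genes, both treated libraries lay below both controls. How many of all genes separated in this way was not counted, and 33% of genes tested were called lower.

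The other genes of arrest and feedback had smaller changes. Mdm2 dropped from 677 and 689 CPM to 349 and 366 (-1.08 ± 0.06), and Ccng1 from 410 and 422 to 265 and 288 (-0.74 ± 0.06). Among the stress genes, Sesn2 was at -1.41 ± 0.07, Trp53inp1 at -1.26 ± 0.06, Phlda3 at -1.14 ± 0.07 and Zmat3 at -1.03 ± 0.07. Bax, the other apoptosis gene, had the smallest change, from 174 and 185 CPM to 134 and 137 (-0.55 ± 0.06, adjusted p = 1.5e-05).

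A-485 acted on much of the transcriptome, with 44.5% of genes tested called and 33% called lower. The members therefore have to be read against a wide background. Their median was -1.20, beside -0.11 over all genes tested, and between 6.69% (Cdkn1a) and 30.4% (Bax) of tested genes had a lower log2 fold change than a given member. At 2-fold, 8 of the 10 genes passed, beside 3363 of the 16009 genes tested. Expressed genes had a median shift of 0.12 before centring, and no member changed its call without centring.

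With 1 h of A-485 compared directly with 1 h of IAA in the same NPC experiment, all 10 genes were lower after A-485, where 44.3% of genes tested were called. The differences ran from -2.54 ± 0.06 for Cdkn1a and -2.24 ± 0.12 for Pmaip1 to -0.44 ± 0.06 for Bax. Mdm2, which was lower after both treatments, was at -0.70 ± 0.06. Without centring the Bax difference was -0.35, under 1.3-fold.

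**Figure D4:**
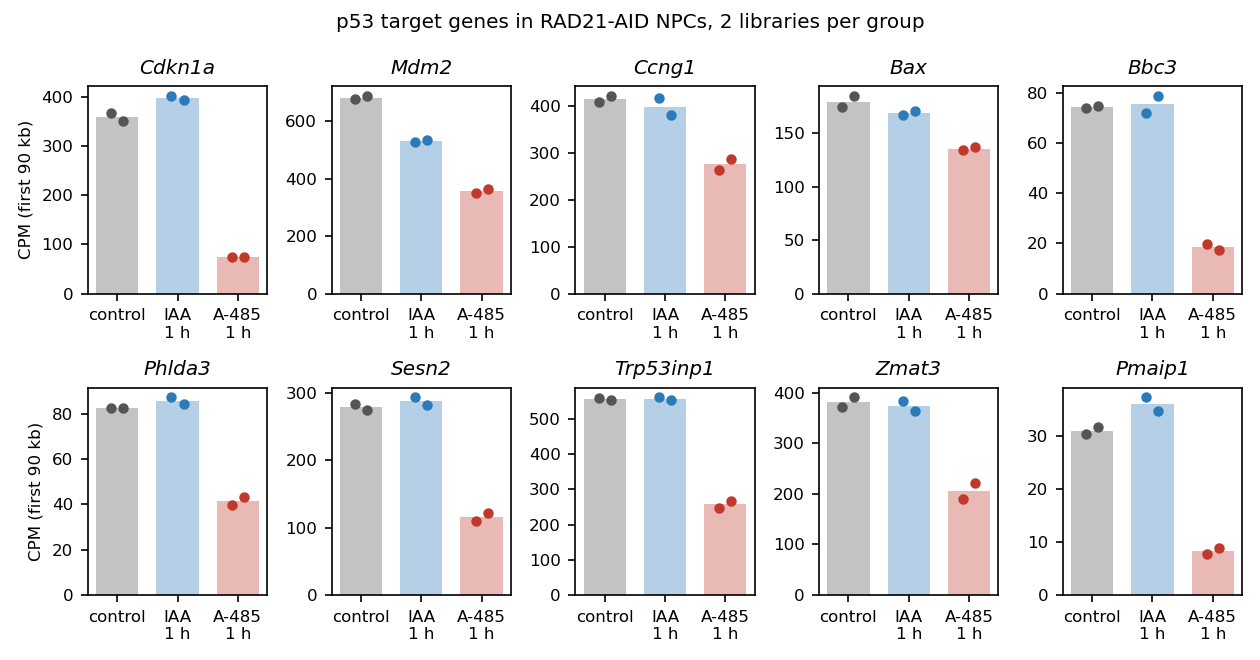
CPM over the first 90 kb of each gene (y axes from 0, differing between panels) for the 10 p53 target genes in NPCs, with 2 untreated (grey), 2 IAA 1 h (blue) and 2 A-485 1 h (red) libraries as points and group means as bars. The red points lie below the grey and blue points in all 10 panels, and the IAA points lie near the controls except for Mdm2.

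A wider list of 32 further p53 targets, also chosen with earlier results of these data known, was followed in the same comparisons. After A-485, 24 were lower and 2 higher, where 33% of all genes tested were called lower and 11.5% higher, with a median of -0.80 beside -0.11 over all genes tested. The lowest were Plk2, a polo-like kinase (-2.65 ± 0.06), the noncoding Pvt1 (-2.53 ± 0.06) and Trp53cor1, the long noncoding RNA next to Cdkn1a (-2.36 ± 0.11), while Rrm2b (0.42 ± 0.11), a ribonucleotide reductase subunit, and Tigar (0.65 ± 0.11), a regulator of glycolysis, were higher. After RAD21 loss the initial mESC experiment had 1 higher, Plk2 (0.41 ± 0.09), beside 2.13% of all genes tested. In the additional experiment 1 rose, Trp53cor1 (0.58 ± 0.03), beside 7.44% of all genes. There 1 fell, the growth arrest gene Gadd45a (-0.77 ± 0.06), beside 4.84%. The neighbouring Cdkn1a and Trp53cor1 thus moved in opposite directions in that experiment.

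In NPCs none of the 32 was called at 1 h, where 5.09% of all genes tested were called. At 2 h 2 were lower, Plk2 (-0.65 ± 0.08) and Pvt1 (-0.41 ± 0.09), beside 6.98% of all genes. At 4 h 3 were higher and 3 lower, beside 6.2% and 10.5% of all genes. At 4 h Gadd45a was at 0.67 ± 0.10, Perp, a p53 apoptosis effector, at 0.61 ± 0.16 and Plk2 at -0.82 ± 0.04. The list's median at 4 h was -0.08, beside -0.02 over all genes tested. Loss of CTCF lowered 1 of the 32, beside 1.79% of all genes, Pidd1 (-0.66 ± 0.10), which codes for a death domain protein. CTCF-YF-AA loss lowered none at 2 h and 2 at 4 h, Tnfrsf10b, a death receptor (-0.40 ± 0.10), and Cdc42bpg (-0.44 ± 0.10). Of all genes tested, 1.92% were lower at 2 h and 2.31% at 4 h. AGB1 and dTAG13 each alone changed none, where 1.44% and 0.0587% of all genes were called. Together they lowered Cdc42bpg (-0.39 ± 0.08) and Trp53cor1 (-0.42 ± 0.11), beside 2.6% of all genes called lower.

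Among 18 genes for p53 and its regulators, Trp53 itself, named although no rule picked it, was called in no treatment, with log2 fold changes from -0.21 ± 0.06 after CTCF loss to 0.11 ± 0.05 after 1 h and 4 h of RAD21 loss in NPCs. The ribosomal protein gene Rpl5, whose product binds MDM2, was lower after CTCF-YF-AA loss at 2 h (-0.60 ± 0.06) and 4 h (-0.60 ± 0.05), after AGB1 (-0.45 ± 0.05) and after both degraders (-0.59 ± 0.06). The checkpoint kinase gene Chek2 was higher in NPCs at 2 h (0.38 ± 0.09) and 4 h (0.44 ± 0.07) of RAD21 loss. A-485 lowered 5 of the 18, beside 33% of all genes, led by Rchy1 (-0.72 ± 0.06), Cdkn2a (-0.71 ± 0.09) and Hipk2 (-0.60 ± 0.07).

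Genes of the integrated stress response were followed as well, since Sesn2 also answers to it. Of 16 such genes, 6 were higher after RAD21 loss in the additional mESC experiment, beside 7.44% of all genes tested, with a median of 0.25, led by Cebpb (0.95 ± 0.13), Slc7a11 (0.66 ± 0.13) and Nupr1 (0.61 ± 0.10). In NPCs, 3 of 14 tested were higher at 1 h, beside 2.35% of all genes, Atf3 (0.87 ± 0.17), Ddit4 (0.56 ± 0.05) and Ppp1r15a (0.54 ± 0.11). At 4 h 4 were higher and 1 lower, beside 6.2% and 10.5% of all genes, with Slc7a11 at 1.80 ± 0.11, Trib3 at 1.25 ± 0.21 and Atf3 at 0.95 ± 0.15. None was called after the CTCF treatments, where 0.0587% to 3.5% of all genes were called. A-485 lowered 5 of 15 tested, a share like the 33% of all genes called lower, led by Slc7a11 (-2.67 ± 0.29) and Ddit4 (-2.32 ± 0.09), and raised Chac1 (0.84 ± 0.35) and Atf5 (0.39 ± 0.10). Of 14 cell cycle genes that p21 represses through the DREAM complex, none was called in any degron treatment. Between 0.0587% and 16.7% of all genes were called in a degron treatment. A-485 raised 1 of the 14, Cdc25c (0.55 ± 0.08), beside 11.5% of all genes called higher.

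The 2 experiments on untreated mESCs of the RAD21-AID line differed in 3 members, Bbc3 (0.51 ± 0.08), Phlda3 (0.41 ± 0.09) and Ccng1 (0.40 ± 0.05) being higher in the additional experiment, where 45.7% of all genes tested were called. None of the 3 passed 1.3-fold without the second initial control. Cell markers differed between these experiments as well. Of the mESC markers, Tdgf1 (1.09 ± 0.05), Klf4 (1.06 ± 0.06) and Pou5f1 (1.02 ± 0.06) were the highest, and only Tfcp2l1 (-0.44 ± 0.03) was called lower. Eomes (1.79 ± 0.20), Mixl1 (1.53 ± 0.42) and Tubb3 (1.13 ± 0.07) were higher, and Gata4 (-1.46 ± 0.23), Map2 (-0.74 ± 0.07) and Aldh1l1 (-0.59 ± 0.06) lower. Their part in the member differences was not tested. Line and experiment cannot be told apart in the comparisons between lines.

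CTCF-YF-AA controls had higher Bbc3 (1.01 ± 0.13), Mdm2 (0.91 ± 0.07), Phlda3 (0.80 ± 0.10), Pmaip1 (0.66 ± 0.26), Sesn2 (0.43 ± 0.07) and Ccng1 (0.39 ± 0.09) than unstranded CTCF-AID controls. Cdkn1a was lower, at -1.20 ± 0.09 (adjusted p = 6.2e-08). These 7 calls in 10 compare with 38.2% of all genes tested. With all 4 CTCF-AID controls, a setting chosen after seeing the data, 5 members were called, Ccng1 (adjusted p = 0.071) and Pmaip1 (adjusted p = 0.19) being lost, and DESeq2 also lost Pmaip1 (adjusted p = 0.16). Of the 32 further targets, 17 were higher and 5 lower, where 17.4% and 20.8% of all genes were, with a median of 0.43 beside -0.06 over all genes tested. Among the mESC markers Pou5f1 (0.72 ± 0.08) and Dppa4 (0.65 ± 0.12) were called higher and Sox2 (-0.42 ± 0.09) lower. Markers of other cell types moved as well. Of 7 endoderm and mesoderm markers, 4 were tested, with Eomes (2.33 ± 0.29) and Gata6 (2.21 ± 0.26) higher and T (-1.93 ± 0.35) and Gata4 lower, and their summed level was 26.8 to 38.4 CPM against 19.8 to 21.2, with none of the 7 at 0. Of the 9 NPC markers, 5 were tested, with Pax6 higher (2.30 ± 0.41) and Nes lower (-1.73 ± 0.21), and the neuron markers Map2 and Rbfox3 were lower. The part of these cells or of growth rate in the p53 target levels was not tested.

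ΔN/ΔC controls had higher Phlda3 (1.48 ± 0.22), Bbc3 (1.32 ± 0.16), Ccng1 (1.16 ± 0.15), Mdm2 (0.91 ± 0.13), Trp53inp1 (0.74 ± 0.12) and Sesn2 (0.54 ± 0.13) than stranded CTCF-AID controls, 6 of 10 against 19.5% of genes tested. Cdkn1a was at -0.10 ± 0.20 (adjusted p = 0.80). The count rested on single libraries and was unstable when 1 library was left out, which leaves 1 library in a group. The share of all genes called in those fits is not given here. Of the further targets, 10 of 31 tested were higher and 1 lower, where 9.36% and 10.2% of all genes were, with a median of 0.41 beside -0.03. Of the mESC markers only Nanog (0.71 ± 0.16) was called, as higher. Here 4 of the endoderm and mesoderm markers were tested, with Gata6 higher and T lower (-2.32 ± 0.47), and the 7 summed to 36.0 to 38.3 CPM against 9.0 to 16.8, with none at 0. Pax6 was higher (4.53 ± 0.49) and Nes lower (-0.78 ± 0.19) among the NPC markers, and Map2 and Rbfox3 were again lower. Their part in the result was not tested.

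RAD21-AID mESCs of the initial experiment had higher Pmaip1 (0.70 ± 0.23), Zmat3 (0.45 ± 0.09), Trp53inp1 (0.38 ± 0.09) and Mdm2 (0.38 ± 0.09) than CTCF-AID, 4 of 10 against 54.1% of genes tested, a share below the background. Expressed genes were shifted by -0.11 in this comparison. Every mESC marker that was called was lower, led by Klf4 (-1.77 ± 0.10), Tdgf1 (-1.41 ± 0.09) and Sox2 (-0.80 ± 0.10). Of the markers of other cell types, Gata4 (-0.75 ± 0.26), Sox1 (-1.61 ± 0.42) and Rbfox3 (-1.45 ± 0.22) were lower and Vim (0.71 ± 0.10), Map2 (0.97 ± 0.13) and Aldh1l1 (0.50 ± 0.11) higher. The part of these marker differences in the result was not tested. Without centring Mdm2, Trp53inp1 and Zmat3 fell under 1.3-fold, while Cdkn1a (-0.48) and Bax (-0.42) passed as lower.

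Untreated NPCs had higher levels of 8 of the 10 genes than mESCs of the additional experiment, where 74.5% of genes tested were called and 40.8% were called higher. Pmaip1 was the most different (1.83 ± 0.09), followed by Ccng1 (0.90 ± 0.04), Bbc3 (0.82 ± 0.05) and Mdm2 (0.82 ± 0.03). Zmat3, Trp53inp1, Phlda3 and Bax were higher by 0.45 to 0.62, and Bax fell under 1.3-fold without centring (0.36). Cdkn1a had 0.14 ± 0.03 (adjusted p = 0.23), and Trp53 itself was lower in NPCs (-1.12 ± 0.04). Among the cell cycle genes repressed through p21, 10 of 14 were lower in NPCs, where 33.7% of all genes were.

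Set per kb of counted gene body, with all libraries of whole-gene counts scaled together, Cdkn1a was the most transcribed member in 5 of the 7 untreated groups. Its mean was 43.1 ± 5.5 CPM per kb (SD, n = 2) in unstranded CTCF-AID, 39.5 ± 9.2 in stranded CTCF-AID, 36.8 ± 1.4 in ΔN/ΔC, 31.8 ± 0.95 (n = 12) in additional and 30.3 ± 2.8 in initial RAD21-AID mESCs. In CTCF-YF-AA it ranked 5 of 10 at 19.2 ± 0.41, after Bax (27.6 ± 0.66), Ccng1 (27.5 ± 1.5), Phlda3 (22.6 ± 1.3) and Mdm2 (20.0 ± 0.35). In NPCs Ccng1 led at 50.4 ± 1.3, ahead of Cdkn1a at 33.6 ± 0.90.

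Several neighbours in these orders do not differ beyond their spread. Cdkn1a and Ccng1 overlapped in ΔN/ΔC (35.8 to 37.8 and 34.3 to 36.3 CPM per kb), Bax and Ccng1 in CTCF-YF-AA, Mdm2 and Trp53inp1 in NPCs and Phlda3 and Mdm2 in the additional RAD21-AID mESCs. Pmaip1 was last in all 7 groups, from 0.40 ± 0.23 CPM per kb in stranded CTCF-AID to 3.61 ± 0.13 in NPCs, and Bbc3 was second to last in all. Set per kb of exon instead, Cdkn1a was first in all 7 groups, although the counts cover whole gene bodies with their introns. Cdkn1a has 922 exon bases in a body of 8723, against 3512 in 6760 for Ccng1, so this order also reflects exon length.

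**Figure D5:**
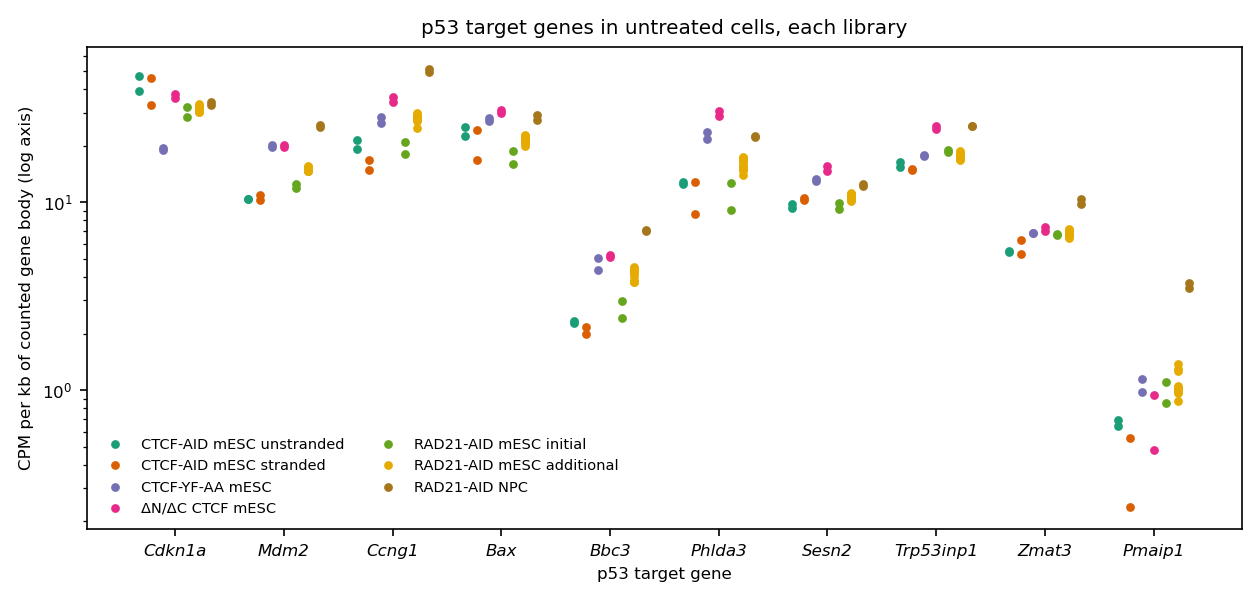
CPM per kb of counted gene body (log axis) of each p53 target gene in every untreated library, coloured by line and experiment. Cdkn1a is lowest in CTCF-YF-AA while Mdm2, Bbc3 and Phlda3 are lowest in CTCF-AID or initial RAD21-AID libraries, and Pmaip1 is the lowest gene in every group, with a mean of 3.61 in NPCs.

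Across the 56 libraries of whole-gene counts, each gene's log2 CPM was centred within its line, experiment and library type and correlated with Cdkn1a. The 5 genes most alike were Zbtb7a (r = 0.88), Rnf7 (0.87), Prr5l (0.87), Cisd3 (0.86) and Slc2a3 (0.86), of 16623 genes. Of the other members, Trp53inp1 (r = 0.79) ranked 42 and Pmaip1 (0.71) ranked 148, while Bax had 0.41 and Mdm2 0.02. The libraries share lines, treatments and controls, and 24 of them come from 1 experiment, so these values describe this set of libraries.

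The counted gene bodies in build mm10 were chr17:29090979-29099701 for Cdkn1a, chr10:117688875-117710758 for Mdm2, chr11:40748552-40755311 for Ccng1, chr7:45461697-45466898 for Bax and chr7:16309616-16318205 for Bbc3. Those of the others were chr1:135766119-135769136 for Phlda3, chr4:132492032-132510501 for Sesn2, chr4:11156431-11174379 for Trp53inp1, chr3:32334792-32365678 for Zmat3 and chr18:66458533-66465560 for Pmaip1. Nascent RNA fills introns, so reads fall over the whole transcribed body. Bax shares 17.6% of its body with a counted gene on the same strand, Sesn2 shares 32.97% with an annotated gene that was not counted, and 11.99% of Cdkn1a lies opposite another annotated gene, so their levels are less certain than those of the other 7.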

How the data were processed

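EU-seq libraries of mouse E14 mESCs and NPCs were analysed from the table of raw counts that the authors deposited. Per the methods, the authors trimmed reads with Cutadapt, aligned them to mm10 with BWA, removed low-quality alignments with SAMtools 1.4 and rRNA and tRNA reads with Bedtools, and counted with HTSeq over 1 representative transcript per gene. Whether counting used strand is not given in the sources used here. In NPCs the 1 h libraries were counted no further than 90 kb into a gene. Of 27665 transcripts, 27455 were matched to symbols (GENCODE M21). No columns of the authors' own comparisons were in the table.

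From these counts, edgeR 4.0.16 (R 4.3.3) with TMM scaling and quasi-likelihood tests was fitted for each of 22 comparisons on the libraries compared, over transcripts with a mean count above 20. The log2 fold changes were centred on the median of genes with a mean TPM over 15. A call needed a Benjamini-Hochberg adjusted p under 0.05 and a centred change of at least 1.3-fold. Intervals are at 95% confidence. CPM is TMM-scaled within each line and experiment, or over all libraries of whole-gene counts for levels per kb. DESeq2 1.42.0, no filter, no centring, a 2-fold threshold, batches, replicate blocks and leaving out each library of a group of 2 were alternatives. Scripts were tested on simulated data.

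All 10 p53 targets are named. Of the other lists, at most 3 called genes with the largest change per list and comparison are named, plus the 5 genes most correlated with Cdkn1a. Trp53, Atf5, Chac1, Gata4, Rrm2b, Tfcp2l1 and Tigar were added after their values were seen. The members and lists were chosen with earlier results of these data known. Replicate numbers paired the CTCF-AID libraries, whose deviations correlated at 0.39 (unstranded) and 0.83 (stranded). No 2 replicates agreed within counting noise. The table held 4027449 to 21898781 counts per library, so that 1 CPM stands for few reads in the shallowest library and low genes such as Pmaip1 are the least precise.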

Additional observations from a re-analysis of the deposited data

Results flagged for a closer look

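In the 4 CTCF-AID control libraries, Phlda3 had 39.0, 39.6, 39.0 and 27.3 CPM, and the lowest lay apart from the others by 0.957 of the log2 range. In the 4 IAA libraries Phlda3 had 42.3, 39.6, 44.1 and 23.4 CPM, with a gap of 0.830 of the range. Pmaip1 had 4.61, 4.38, 4.09 and 0.75 CPM after IAA, with a gap of 0.934. In each case the library apart was the second stranded one. Of 20 groups of 4 examined, chance gives about 1 in 20 such gaps.

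The response to 4 h of RAD21 loss differed between NPCs and mESCs by 0.82 for Cdkn1a, 1.14 for Pmaip1, 0.25 for Trp53inp1, 0.23 for Bbc3 and 0.11 for Sesn2 on the log2 scale, each with an adjusted p under 0.05 for the difference in edgeR. In ΔN/ΔC mESCs, AGB1 and dTAG13 differed by -0.24 for Cdkn1a and 0.16 for Mdm2.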

How the results depend on the processing

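No member's call changed direction under an alternative. Signs of log2 fold changes that passed the thresholds under neither setting were not compared. Of the members' log2 fold changes under all alternatives, 1988 kept their side of the thresholds, 16 newly passed and 76 no longer passed. Of the counts of members called, 180 stayed within 1.5 times, 7 rose and 21 fell. At 2-fold the count was 0 for RAD21 loss in both mESC experiments, in NPCs at 1 h and 4 h, for CTCF-YF-AA at 2 h and 4 h, for untreated RAD21-AID against CTCF-AID and for additional against initial. In those comparisons, 70 of 15177 genes tested (initial) and 133 of 15732 (additional mESCs) passed 2-fold. In NPCs 93 of 15860 passed at 1 h and 576 of 16148 at 4 h. For CTCF-YF-AA 114 of 14009 passed at 2 h and 147 of 14280 at 4 h. For RAD21-AID against CTCF-AID 2931 of 15912 passed, and for additional against initial 1636 of 15727. The count of members was 1 for untreated NPCs against mESCs and for the NPC minus mESC response, 2 for untreated CTCF-YF-AA, 3 for untreated ΔN/ΔC and 6 for A-485 against RAD21 loss. Over all genes tested, 7867 of 17290, 886 of 17538, 2447 of 15660, 1855 of 14627 and 3249 of 15882 passed 2-fold there, in the same order. Without centring the count of members called was 0 in NPCs at 1 h and 2 at 4 h. Leaving out each library of a group of 2 moved the count for the initial mESC experiment, NPCs at 1 h, 2 h and 4 h and CTCF loss. It also did so for CTCF-YF-AA at 2 h, both degraders, additional against initial and, most of all, untreated ΔN/ΔC. These fits leave 1 library in a group, and the share of all genes called in them is not given here.

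Over all genes, DESeq2 called 340 against 719 by edgeR in the initial mESC experiment, 894 against 524 after CTCF loss, 215 against 378 and 275 against 475 for CTCF-YF-AA at 2 h and 4 h, 273 against 482 after both degraders and 2 against 8 for 4 h against 2 h. Without the low-count filter the additional mESC experiment had 2920 against 1932 and the CTCF minus CTCF-YF-AA difference 586 against 233. For CTCF loss the replicate block gave 2201, unstranded libraries alone 1089 and stranded ones alone 0; the block gave 956 for the CTCF minus CTCF-YF-AA difference and 13 against 8 for dTAG13. With the block 0 members were called after CTCF loss. With all 4 CTCF-AID controls, chosen after seeing the data, untreated CTCF-YF-AA gave 2666 against 5989. In the additional mESC experiment 1 of 12 pairs correlated over 0.1 and 3 matched best with their own number. The causes were not tested.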
